A study of Mus musculus with 19 samples.

Results

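The livers of Mat1a knockout (KO) mice given S-adenosylmethionine (SAMe) were compared with those of untreated wild-type (WT) mice at single CpG cytosines. All 5383 sites of the authors' deposited table for this comparison were taken, out of 8525 different sites in the 3 deposited tables. Of these, 1676 sites had no line of the same chromosome, position and strand in the table comparing WT with placebo-treated KO mice, and most of what follows concerns them. They are called SAMe-listed here. The other 3707 sites stood in both WT tables and are called shared.

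The WT group held 8 untreated mice. The SAMe group held 5 Mat1a KO mice, and 6 Mat1a KO mice given placebo formed the third group. All were aged 10 months, and treatment with placebo or SAMe ran for 8 weeks by the series title. No WT mouse received placebo or SAMe, so in this comparison genotype and treatment changed together and cannot be told apart. The labels do not say how the knockout was made, on which strain, or what sex the animals were. Cytosine methylation was read by reduced-representation bisulfite sequencing (RRBS), which sequences restriction fragments, in this case cut by MspI at CCGG and TaqαI at TCGA.

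Mat1a encodes methionine adenosyltransferase I/III, the enzyme that makes SAMe from methionine in adult liver. SAMe is the methyl donor of DNA, histone, RNA and small-molecule methyltransferases, and glycine N-methyltransferase and the betaine and folate pathways regulate its level and recycle its product. In DNA, methyl groups are placed on cytosines of CpG pairs by the Dnmt enzymes and oxidised by the Tet enzymes.

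The tables held the difference between the group methylation levels in percentage points, with a p-value and a q-value, and no value for any animal. Hence no level, spread between animals, coverage or depth can be given, and the liver label could not be checked against marker genes. A difference was read as KO minus WT, the usual order of the comparison tool, so a negative value means lower methylation in the SAMe-treated KO mice. The tables do not state this order, and if the authors subtracted the other way, all directions below are reversed. Sites of the SAMe table had an absolute difference of at least 20 and a q-value of at most 0.0178, and the table comparing the KO groups reached a q-value of 0.0495. A site missing from a table either fell short of that table's limits or was not covered. The WT animals entered both WT tables, so overlap between these tables is given as a description only.

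The sequences that bear most directly on the SAMe-listed sites lay at gene starts. Of 5383 sites, 55 (1.02%) fell in the RefSeq promoter windows of GRCm38.p6, which run from 250 bases before to 50 bases after a start. These included 14 of the 1676 SAMe-listed sites (0.835%) and 41 of the 3707 shared sites (1.11%). At 56 of 56 combinations of site and window the bases at the site on its own strand were CG, which checks the positions against the reference. Of the 14, 7 lay before the start of a coding gene, 1 after one, in Ptpn20, and 6 beside starts of non-coding or predicted genes. The stretches below show 5 of the 7, chosen after their values were seen, each written 5′ to 3′ on the strand of its gene with the affected CG in capitals.
Lypd1, chr1:125913023-125913082 (minus strand): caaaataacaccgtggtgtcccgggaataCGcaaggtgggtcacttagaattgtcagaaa
Cbr2, chr11:120732193-120732252 (minus strand): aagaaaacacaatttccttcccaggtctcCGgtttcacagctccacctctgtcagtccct
Speer2, chr16:69863752-69863811 (minus strand): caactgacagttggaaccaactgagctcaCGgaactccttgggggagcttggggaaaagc
Mamstr, chr7:45639817-45639876 (plus strand): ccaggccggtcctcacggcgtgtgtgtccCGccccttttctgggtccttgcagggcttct
Sox6, chr7:116031167-116031226 (minus strand): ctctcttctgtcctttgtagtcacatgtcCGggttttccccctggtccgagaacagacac

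Methylation at these 5 promoter CpGs was lower in SAMe-treated KO than in WT liver in the authors' deposited table. The difference in that deposited table was −25.1 percentage points for Cbr2, a carbonyl reductase gene, 201 bp before its start. It was −23.9 for Lypd1, 125 bp before its start, −23.3 for the transcription factor gene Sox6, 149 bp before, −22.8 for Mamstr, a coactivator of MEF2 factors, 131 bp before, and −20.7 for Speer2, 38 bp before. Of the 7 sites before a coding start, those not shown were in Crocc and Pkd1l2. Crocc stood at −25.5, 1 bp before its start, and Pkd1l2 at −20.2, 22 bp before, in the authors' deposited table. All 7 values lay close to the limit of 20. The windows holding a SAMe-listed site contained a median of 7.5 CG pairs, those with any listed site 8.5 and all 32851 windows 7. All of the 14 windows contained CCGG or TCGA, the sites of the enzymes used, as did all of the 46 windows with any listed site, against 60.5% of all windows. The 46 include the 14. RRBS reads fragments cut at these motifs, so the assay itself favours windows that hold one, and nothing is read from these shares. CCGG was in 92.9% of the 14, 89.1% of the 46 and 52.8% of all windows, and TCGA in 42.9%, 41.3% and 22%. Both motifs read the same on either strand.

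A second sequence is shown because it precedes the longest run of gains. The H protein encoded by Gcsh belongs to the glycine cleavage system, which breaks down glycine in mitochondria and passes a one-carbon unit to folate. The gene lies on the minus strand of chromosome 8 (116981967 to 116993498). The 250 bases before its RefSeq start hold 18 CG pairs, in capitals, 3 CCGG and no TCGA, and none of these CpGs was listed.
Gcsh, chr8:116993499-116993748 (minus strand): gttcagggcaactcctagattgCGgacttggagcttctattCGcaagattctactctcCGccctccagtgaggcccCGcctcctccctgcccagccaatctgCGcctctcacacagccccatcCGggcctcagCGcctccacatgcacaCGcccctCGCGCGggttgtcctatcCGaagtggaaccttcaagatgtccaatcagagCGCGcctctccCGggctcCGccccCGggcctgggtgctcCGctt

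The 13 higher sites began 59 bp after that start and ended 187 bp after it. On the plus strand 10 sites (positions 116993311 to 116993355) stood between 23.8 and 27.1 percentage points in the authors' deposited table. On the minus strand 3 sites (116993399 to 116993439) stood between 20.8 and 21.0 in the same deposited table. Every plus-strand value was above every minus-strand value, and the 3 minus-strand sites were also those nearest the start. Strand and position cannot be told apart in this run. Neighbouring cytosines on 1 fragment share reads, so the 13 sites are not 13 independent measurements. No site of Gcsh or within 2 kb of it was listed for WT against placebo-treated KO or between the KO groups.

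**Figure D1:**
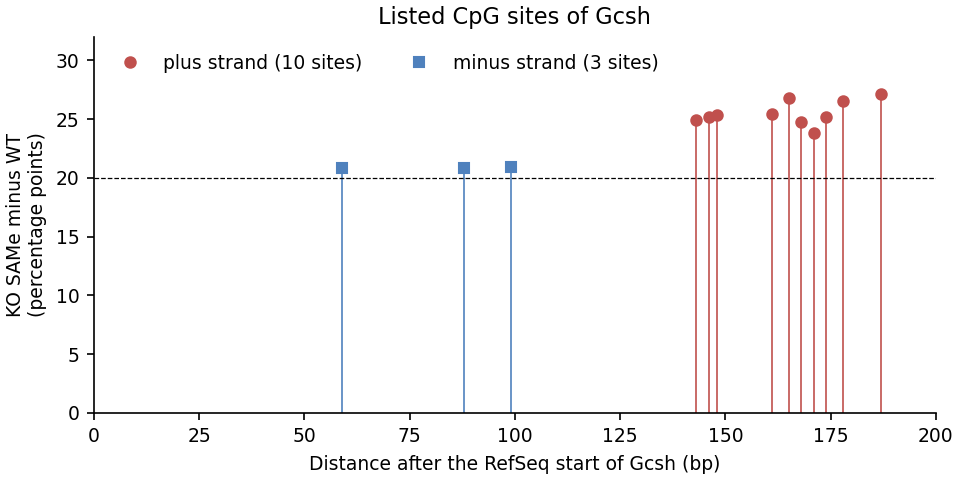
Methylation difference (percentage points, SAMe-treated KO minus WT) of each listed Gcsh site against its distance from the RefSeq start in bp, with plus-strand and minus-strand cytosines marked separately. The 10 plus-strand sites sit between 23.8 and 27.1, above the 3 minus-strand sites at 20.8 to 21.0.

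Lower methylation dominated among the SAMe-listed sites as it did among all sites. Of the 1676 SAMe-listed sites 1635 were lower and 41 higher (97.6% lower). Their median absolute difference in the authors' deposited table was 23.0 percentage points (quartiles 21.2 and 26.1), against 29.2 (24.6 and 35.8) at the shared sites. A difference under 25 was listed at 1138 SAMe-listed sites (67.9%) and 998 shared sites (26.9%). At least 30 was reached by 176 SAMe-listed sites (10.5%) and 1725 shared sites (46.5%). At 40 or more stood 25 SAMe-listed sites (1.49%) and 557 shared sites (15%). The q-value was listed as 0 at 233 SAMe-listed sites (13.9%) and 1725 shared sites (46.5%). The SAMe-listed sites were thus mostly small differences just past the limit, with a tail of 25 large ones. Taking sites that a table with such limits does not list favours small differences by itself. The 3014 sites listed for placebo-treated KO alone had a like size, with a median of 23.4 and 63.1% under 25.

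**Figure D2:**
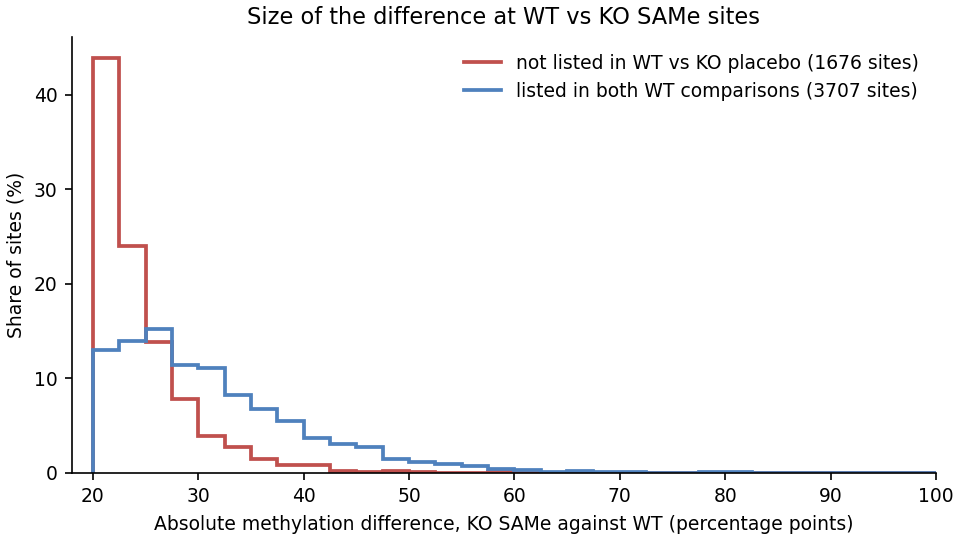
Distribution of the absolute methylation difference (percentage points) of SAMe-treated KO from WT at SAMe-listed and shared sites, as a share of the sites of each set. SAMe-listed sites crowd towards the limit of 20 (median 23.0) and shared sites extend further (median 29.2).

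The deposited data offered 2 measures of how far values at nearly the same place differ, neither of which measures the spread between animals. At 21 CpGs both strands were listed. The values of the 2 strands had the same sign at all 21, differed by a median of 5 percentage points and by at most 16.0, and the differences had an SD of 8.45. Among 1565 neighbouring pairs of listed sites within 100 bp, all 1565 had the same sign and the SD of the difference was 8.83. A median SAMe-listed site therefore exceeded the limit of 20 by less than the spread between the 2 strands of 1 CpG. With 99.0% of all sites lower, a like sign was favoured in both measures. Both sites of a pair had to pass the limit of 20, which can narrow these spreads.

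A minority of the sites new to the SAMe table lay within 1 kb of one in the placebo table. Of the SAMe-listed sites 325 (19.4%) were within 100 bp of a placebo-table site, 433 (25.8%) within 1 kb, 587 (35.0%) within 10 kb and 1138 (67.9%) within 100 kb. For the sites listed for placebo alone the share within 1 kb of a SAMe-table site was 18.4%. A shared site lay within 100 bp of 263 SAMe-listed sites. All 263 had the sign of those neighbours, and 212 were smaller in size than the neighbours' mean. Their median in the authors' deposited table was −23.1 percentage points, against −27.8 at the shared neighbours under SAMe and −25.4 at the same neighbours under placebo. Beside shared sites, the SAMe-listed sites were thus mostly smaller losses of the same direction. Shared sites passed the limit of 20 in both WT comparisons, so the choice of sites favours this order by itself. With 99.0% of all sites lower, a like sign was favoured too.

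The remaining 1243 SAMe-listed sites had no placebo-table site within 1 kb. Joining sites within 1 kb gave 1078 such regions, of which 956 (88.7%) were single sites, 122 held at least 2, 28 at least 3 and 5 at least 4. No region among the 1008 of the whole comparison with at least 2 sites mixed higher and lower sites, which was favoured with 99.0% of all sites lower. After Gcsh, the longest run was that of Ltbp3, which encodes a protein that holds latent TGF-beta in the matrix. Its 5 sites within 34 bp (chromosome 19, 5742504 to 5742537) averaged −24.2 percentage points in the authors' deposited table. Pcgf2, a Polycomb repressive complex 1 subunit gene, had 4 sites within 13 bp (chromosome 11, 97698021 to 97698033) between −22.9 and −39.1 in the authors' deposited table. Hopx, the gene of an atypical homeodomain protein, had 4 sites within 36 bp (chromosome 5, 77114825 to 77114860) between −37.0 and −40.4 in the authors' deposited table. The fifth run of at least 4, on chromosome 4 (16055823 to 16055856), had no coding gene within 2 kb and averaged −40.1 over 4 sites of the authors' deposited table. Hopx thus stood at nearly 1 level across its run, and Pcgf2 held 1 smaller value beside 3 near −39.

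Among the runs of 3 sites, Uox, which encodes urate oxidase, an abundant liver enzyme of purine breakdown, averaged −33.1 percentage points in the authors' deposited table (−28.6 to −38.3; chromosome 3, 146620263 to 146620285). The run in Ndufb9, a subunit gene of respiratory complex I, averaged −31.7 in that deposited table, as did that of Lrp5, a Wnt co-receptor gene. Lmnb1, the gene of the nuclear lamina protein lamin B1, averaged −31.9, Tmem120b −32.3 and Cep131 −29.9 in the authors' deposited table. Ihh, which encodes the ligand Indian hedgehog, averaged −27.0, and a run shared by Chkb, a choline kinase gene, and Cpt1b, a carnitine palmitoyltransferase gene, −27.1 in the authors' deposited table. Those 3 sites cannot be assigned to one of the 2 overlapping gene windows. Smaller means between −21.3 and −24.0 were found for Zfp707, Ankrd13b, Wdfy3, Gpatch3, Sh2b3, Suclg2 and Setd1b in the authors' deposited table. Of the 28 runs of at least 3 sites, those of Gcsh and Ctdsp1 were higher and the others lower.

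**Figure D3:**
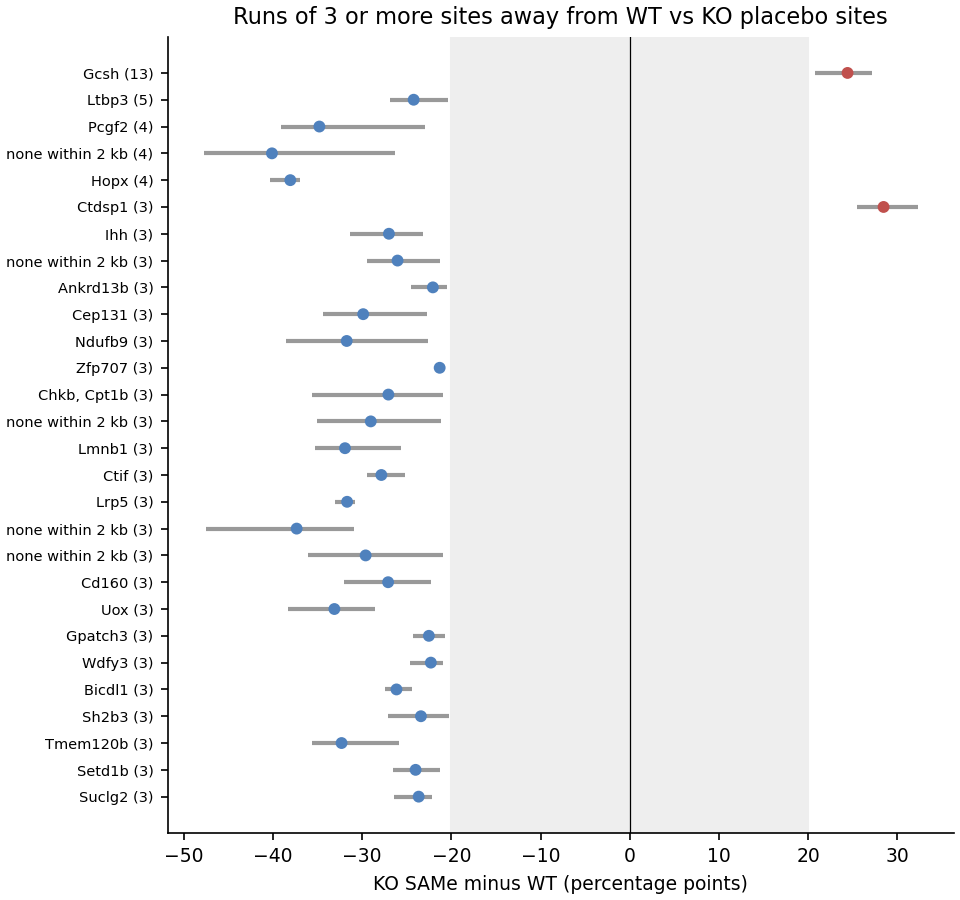
Runs of at least 3 SAMe-listed sites with no placebo-table site within 1 kb, by gene, with the mean methylation difference from WT in percentage points as a point and its lowest to highest site as a bar. The Gcsh run of 13 sites (mean 24.4) and the Ctdsp1 run of 3 (mean 28.5) lie above 0 and all other runs below it.

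Gains were rare and mostly listed in only 1 of the WT comparisons, on either side. Of the 3014 sites listed for placebo-treated KO alone 31 were higher, and of the 3707 shared sites 12. Of the 53 higher sites of the whole comparison 41 were SAMe-listed (77.4%), against 30.7% of the lower sites and 31.1% of all sites. The Gcsh run made up 13 of the 41, which formed 26 regions, so the share rests on fewer places than sites. Ctdsp1, a phosphatase gene of the small CTD family that also hosts Mir26b, had 3 higher sites 3934 to 3967 bp after its start. They stood at 32.3, 25.4 and 27.6 percentage points in the authors' deposited table (chromosome 1, 74395543 to 74395576), 1149 to 1182 bp after the Mir26b hairpin. Another Ctdsp1 site, shared and 1204 bp before the start, was lower (−21.1, and −22.5 under placebo, in the authors' deposited tables). The gene therefore held both directions.

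The higher SAMe-listed sites in other named genes were single. Podxl, which encodes the surface sialomucin podocalyxin, stood at 29.6 percentage points in the authors' deposited table (chromosome 6, 31551219). Stk19 stood at 25.4 (chromosome 17, 34823526, within 2 kb of the gene) and the homeobox gene Cux2 at 22.9 (chromosome 5, 122019391) in that deposited table. The BMP-family ligand gene Gdf10 (22.4) and the methyltransferase gene Setd4 (21.3) followed in the authors' deposited table. Chst5 (20.6), Slitrk1 (20.5), the imprinted intronless gene Peg12 (20.5, 697 bp after its start), Dact3 (20.5) and Ece1 (20.3) lay just past the limit in the authors' deposited table. Cux2, Dact3 and Ece1 also held lower SAMe-listed sites, at −21.2, −21.1 and −22.1 in the authors' deposited table. No coding gene lay within 2 kb of 12 of the 41 higher sites. Of these, a pair on chromosome 7 (16224807 and 16224849) stood at 22.5 and 25.8, and a site on chromosome 12 (32930161) at 27.0 lay beside 3 shared gains of 33.1 to 41.9, in the authors' deposited table.

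The largest losses among the SAMe-listed sites were also mostly single. The largest in a named coding gene, −52.1 percentage points in the authors' deposited table (chromosome 17, 47689871), lay inside both Frs3, an FGF receptor adaptor gene, and Prickle4. It was also 1485 bp before the start of Tomm6, a subunit gene of the mitochondrial import pore. The 3 genes share this cytosine. Thnsl1, a threonine synthase-like gene, held 3 SAMe-listed sites (−40.4, −42.5 and −48.1) beside 2 shared ones (−30.2 and −35.9) in the authors' deposited table. There the SAMe-listed sites were larger than their shared neighbours, the reverse of the order at most of the 263 sites above. The sites named here were picked for their size, which favours this.

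Prrc2a stood at −46.3 percentage points, Entpd5, a nucleotide diphosphatase gene of the endoplasmic reticulum, at −45.2, and Prob1 at −44.4 in the authors' deposited table. Prob1 held 31 sites in all, only 2 of them SAMe-listed. The autophagy gene Atg16l1 stood at −42.5, Tmem220 at −41.9, the lysosomal protease gene Lgmn at −41.6, Tlcd4 at −41.1 and Zfp704 at −41.0 in the authors' deposited table. Smaller shared losses stood close by in Atg16l1 (−34.8 and −26.5), Lgmn (−20.8), Zfp704 (−30.1) and Entpd5 (−29.7 and −26.6) in that deposited table. In Prob1 the shared sites ran from −24.4 to −62.2, on both sides of its SAMe-listed value. Prrc2a, Tomm6 and Tmem220 had no placebo-table site, and the other 9 of these 12 genes had at least 1. All 25 SAMe-listed sites above 40 were missing from the comparison of the KO groups. By arithmetic, a placebo difference under 20 at such a site implies a difference of over 20 between the KO groups. At least 1 of the other tables therefore lacked each site for its coverage or its q-value, and which was not tested.

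In terms of genes, 2363 of 21887 coding genes (10.8%) had a site inside or within 2 kb, and 988 (4.51%) had a SAMe-listed one. For placebo-treated KO it was 2745 genes (12.5%). A site in the SAMe table and none in the placebo table was found for 502 genes (2.29%), of which 427 rested on 1 site, 75 had at least 2 and 18 at least 3. The reverse held for 884 genes. The other 486 genes with a SAMe-listed site also had a placebo-table site. Of the SAMe-listed sites 71.8% lay inside a coding gene or within 2 kb of one, against 78.8% of the shared sites. Their median distance to the nearest RefSeq start was 21964.5 bp, against 18153 bp. Most genes new to the SAMe table thus owed their place to 1 cytosine.

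Genes with many SAMe-listed sites were mostly those already hit under placebo. Gse1, a corepressor gene, had 9 of its 22 sites SAMe-listed and 24 placebo-table sites. Aldh2, the mitochondrial aldehyde dehydrogenase gene, had 5 of 7, 4 of them on chromosome 5 from 121578317 to 121578343, between −24.0 and −27.5 percentage points in the authors' deposited table. The cytolinker gene Dst had 5 of 8 (−20.4 to −28.5) and the zinc transporter gene Slc39a11 5 of 9 (−21.4 to −30.5) in the authors' deposited table. Ctif, a translation factor gene, and Ankrd13b each had 4 of 9. Arhgap10, a GTPase-activating protein gene, differed from these in having 4 SAMe-listed sites and no other, from −20.9 to −29.6 in the authors' deposited table.

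Reln, which encodes the secreted glycoprotein reelin, made by hepatic stellate cells, had 5 of 6 sites SAMe-listed. Of these, 3 lay 1402 to 1428 bp before its start at −20.9 to −23.3 percentage points, beside a shared site at −25.4, in the authors' deposited table. The other pair lay far inside the gene, at −21.0 and −37.3 in that deposited table (chromosome 5, 21976272 and 21976314).

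At 21 SAMe-listed sites a difference between the SAMe and placebo KO groups was also listed by the authors, which allows the placebo difference to be computed by addition. All 21 were farther from WT under SAMe than under placebo, a direction that follows from the choice of sites. The computed placebo differences ran from −19.4 to 2.12 percentage points with a median of −6.96. Of the 21 sites 19 were lower and 2 higher than WT, and 9 had no coding gene within 2 kb. Among those in a gene, a clear loss under SAMe beside nearly none under placebo was found at 3 cytosines. Nrxn2, a neurexin gene, stood at −24.8 under SAMe in the authors' deposited table and 1.84 under placebo. Cntn2, the gene of an axonal adhesion protein, stood at −25.9 in the authors' deposited table and −0.112 under placebo. Nrxn2 and Cntn2 each had 1 other cytosine listed for placebo-treated KO, so the contrast holds for the cytosine and not for the gene. The cytosine shared by Grb7, an adaptor of receptor tyrosine kinases, and Mien1 stood at −21.4 in the authors' deposited table and −0.129 under placebo. These cases differ from sites whose placebo value fell just short of the limit.

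Llgl2, which encodes a basolateral polarity protein, held 2 of these sites (chromosome 11, 115850769 and 115850755), at −27.6 and −26.2 percentage points in the authors' deposited table, with −7.39 and −3.42 under placebo. Slc36a2, an amino acid transporter gene, stood at −30.4 in the authors' deposited table and −7.94 under placebo. Spry4, an inhibitor of receptor tyrosine kinase signalling, stood at −35.1 in the authors' deposited table and −10.2 under placebo. Lrp5 stood at −33.1 in the authors' deposited table and −11.2 under placebo, and its neighbours in the run at −31.2 and −30.9. Creld1 stood at −32.1 in the authors' deposited table and −12.0 under placebo. At these cytosines the placebo livers also stood below WT, by less than the limit of 20. Llgl2, Spry4, Lrp5 and Creld1 each had a placebo-table site at another cytosine, so for them this holds for the cytosine and not for the gene.

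For Llgl1, the paralog of Llgl2, and Ndufb9 the placebo difference was just inside the limit. Llgl1 stood at −39.1 percentage points in the authors' deposited table and −19.0 under placebo. A shared Llgl1 site nearby was −42.1 under SAMe and −22 under placebo in the authors' deposited tables and moved by a like amount. Ndufb9 stood at −38.6 in the authors' deposited table and −18.4 under placebo. The gain at Stk19, 25.4 under SAMe in the authors' deposited table, came with 2.12 under placebo.

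**Figure D4:**
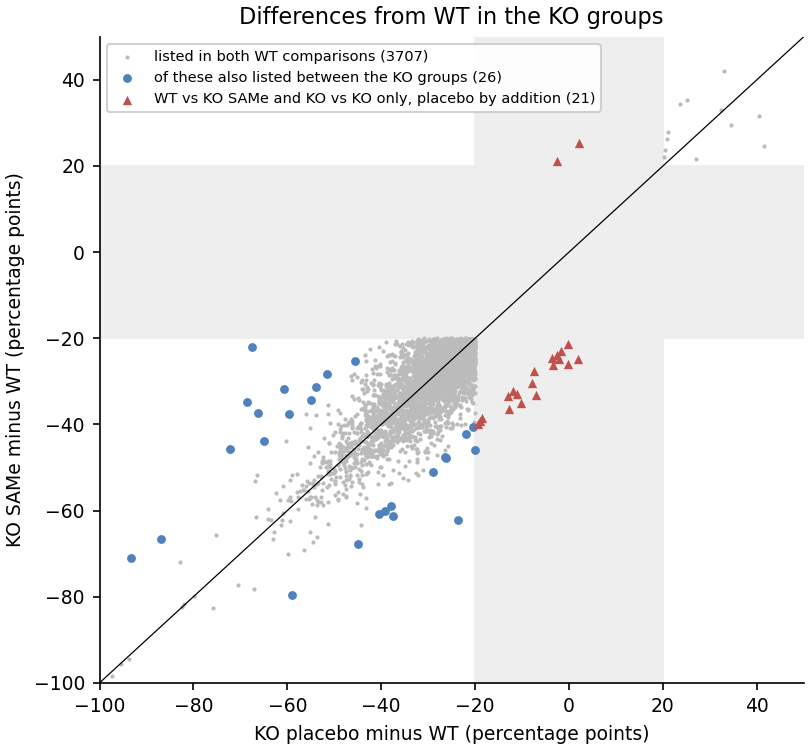
Methylation difference from WT under SAMe against that under placebo, both in percentage points, for all shared sites (grey, with those also listed between the KO groups in blue) and for SAMe-listed sites with a placebo value by addition (red triangles). The red triangles have placebo values between −19.4 and 2.12, while the blue sites lie on both sides of the line of equal values.

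At the shared sites the KO groups had nearly equal differences from the same WT animals. The median in the authors' deposited tables was −29.2 percentage points under SAMe and −28.6 under placebo, and 2467 sites (66.5%) agreed within 5. The size was larger under SAMe at 2013 sites (54.3%), and 80 sites differed by more than 15. The genes with the largest change in either direction were named. Cars2, the mitochondrial cysteinyl-tRNA synthetase gene, stood at −62.1 under SAMe and −23.6 under placebo in the authors' deposited tables. Tm2d3 stood at −61.3 and −37.5, and Adamts17, a secreted metalloprotease gene, at −67.7 and −44.9 in the authors' deposited tables. The opposite order held for Gpr180 (−34.7 under SAMe and −68.5 under placebo), Enpp5 (−45.8 and −72.1) and the citramalyl-CoA lyase gene Clybl (−31.2 and −53.8) in the authors' deposited tables. Of these 6 genes, 3 were thus farther from WT under SAMe and 3 closer.

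Gene lists are given by their counts against the 10.8% of coding genes with a site and the 4.51% with a SAMe-listed site. Of the 20 lists 16 exceeded the former and 16 the latter, with medians of 25.4% and 9.58% over the lists. The lists hold well-studied genes, and neither gene length nor covered CpGs were matched, so a share above these backgrounds sets no list apart. Within the lists every listed site was lower except those of Gcsh.

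In methionine and methyl group metabolism 10 of 29 genes (34.5%) had a site and 6 (20.7%) a SAMe-listed one, with 8 genes under placebo. The 13 sites had a median of −28.0 percentage points in the authors' deposited table, close to the size over all sites (26.7). Gnmt, which consumes SAMe to methylate glycine and is the main sink for excess SAMe in liver, stood at −35.8 in the authors' deposited table, 1477 bp before its start. Chdh, which oxidises choline towards betaine, held SAMe-listed sites at −29.0 and −21.3 and a shared one at −27.0 in the authors' deposited table. Sardh (−28.0) and Dmgdh (−20.9), which demethylate sarcosine and dimethylglycine, had no placebo-table site in the authors' deposited tables. The same held for Ahcyl2 (−22.6), a relative of adenosylhomocysteinase, in the authors' deposited table. Sardh, Dmgdh and Ahcyl2 each rested on 1 site.

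No site was listed in or within 2 kb of Mat1a itself (chromosome 14, 41105012 to 41124428), of Mat2a or Mat2b, which provide the extrahepatic enzyme, or of Dnmt1, Dnmt3a, Dnmt3b, Tet2 and Tet3. Whether these genes were covered is not known. Tet1 held a SAMe-listed site at −20.3 percentage points in the authors' deposited table and 2 different sites in the placebo table. The DNA methylation machinery list had sites in 2 of 17 genes (11.8%), Tet1 and the methyl-CpG-binding protein gene Mbd1 (−25.4 in the authors' deposited table). Glycine cleavage, serine and folate genes had 1 of 22 (4.55%), Gcsh. Glutathione and sulfur genes had 5 of 19 (26.3%), all at shared sites, among them Gpx4, which reduces lipid peroxides (−35.1), and Gsr, glutathione reductase (−22.8), in the authors' deposited table. None of the 10 polyamine genes, whose pathway uses decarboxylated SAMe, had a site.

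Among users of SAMe in chromatin, 8 of 35 histone and RNA methyltransferase genes (22.9%) had a site, 4 with a SAMe-listed one. Setd1b, a histone H3 lysine 4 methyltransferase gene, had 3 SAMe-listed sites from −21.2 to −26.6 percentage points and no other in the authors' deposited table. Kmt2d, of the same class, stood at −24.8 in the authors' deposited table. The largest SAMe-listed differences of Nsd1, a lysine 36 methyltransferase gene, and Prdm16 were −24.3 and −23.2 in that deposited table. Both genes held larger shared losses, down to −40.1 in Nsd1 and −43.8 in Prdm16 in the authors' deposited table. Of the 10 Prdm16 sites 2 were SAMe-listed. Histone demethylase and Polycomb genes had a site in 8 of 29 (27.6%), with SAMe-listed sites in Pcgf2, Cbx7 (−25.5), Cbx2 (−25.4) and Kdm4b (−22.2) in the authors' deposited table. Pcgf2, Cbx7 and Cbx2 all encode subunits of Polycomb repressive complex 1, and Kdm4b a histone demethylase.

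Of the hepatocyte transcription factor and nuclear receptor genes 10 of 35 (28.6%) had a site and 3 a SAMe-listed one. These were the adipogenic receptor gene Pparg (−26.2 percentage points), Gata6 (−25.8) and the oestrogen receptor gene Esr1 (−23.2) in the authors' deposited table. Lipid synthesis and lipoprotein genes had 10 of 38 (26.3%), 5 with a SAMe-listed site, against 14 under placebo. The acetyl-CoA carboxylase gene Acacb (−27.4), fatty acid synthase (Fasn, −26.3), the sterol regulator Srebf2 (−25.6) and the sterol exporter gene Abcg5 (−21.4) held the largest SAMe-listed differences there in the authors' deposited table. Fatty acid oxidation, ketone and fasting genes had 5 of 21 (23.8%). Pcx, the gluconeogenic enzyme pyruvate carboxylase, held 12 sites, 3 of them SAMe-listed with −36.1 the largest in the authors' deposited table. Bile acid and drug metabolism had 1 of 26 genes (3.85%), the bile acid conjugating enzyme gene Baat (−25.5 in the authors' deposited table), and the clock list 3 of 19 (15.8%), with 4 of 5 Rora sites SAMe-listed.

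Insulin, IGF and energy signalling had 12 of 35 genes (34.3%) with a site and 7 with a SAMe-listed one, against 13 genes under placebo. Foxo3, a forkhead factor restrained by insulin, held 3 SAMe-listed sites, the largest at −33.9 percentage points in the authors' deposited table. A shared site elsewhere in Foxo3 stood at −53.9 in that deposited table. Rptor, the mTORC1 scaffold gene, held 3 with −30.2 the largest, and Irs2, an insulin receptor substrate gene, 2 at −28.8 in the authors' deposited table. A site at −23.6 lay within Pkd1 and within 2 kb of the neighbouring mTORC1 inhibitor gene Tsc2 in the authors' deposited table. Of 45 genes of liver cancer and growth control 11 (24.4%) had a site, 5 with a SAMe-listed site, against 16 under placebo. Tgfa, an EGF receptor ligand gene, stood at −28.3, 797 bp before its start, the Hippo coactivator gene Wwtr1 at −25.2 and the MAP kinase phosphatase gene Dusp1 at −22.0 in the authors' deposited table. These were SAMe-listed sites, and each of these genes also held a shared site. Wnt and beta-catenin genes had 12 of 44 (27.3%), with SAMe-listed sites in Lrp5, Tcf7 (−22.9), Wnt5b (−22.6) and Fzd7 (−20.4) in the authors' deposited table.

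TGF-beta, stellate cell and fibrosis genes had 14 of 38 (36.8%) with a site and 8 (21.1%) with a SAMe-listed one, against 10 under placebo. In this list 4 genes had a site under SAMe alone and 0 under placebo alone, against 2.29% and 4.04% of all coding genes. With counts this small nothing is read from the difference. These 4 were the collagen genes Col1a1 (−27.6 percentage points), Col6a1 (−22.5) and Col5a1 (−20.2) and the cytokine gene Tgfb1 (−20.8) in the authors' deposited table, each with 1 site. The membrane protease gene Mmp14 (−29.1) and the signal transducer gene Smad3 (−26.4) added SAMe-listed sites to shared ones in the authors' deposited table. Endothelial and immune cell genes had 5 of 34 (14.7%), including the integrin gene Itgam (−29.6), Runx1 (−28.8 and −27.9) and the von Willebrand factor gene Vwf (−22.3) in the authors' deposited table. Cholangiocyte and progenitor genes had 8 of 18 (44.4%), with SAMe-listed sites in Notch1 (−26.5), its ligand gene Jag1 (−26.3) and Pkd1 in the authors' deposited table. These marker genes were read in whole liver DNA, so a change in cell make-up and a change within cells cannot be told apart.

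The planar polarity and cadherin list had 10 of 29 genes (34.5%) with a site against 13 under placebo, with SAMe-listed sites in Cdh2 (−24.6 percentage points), Cdh4 (−20.3) and Cdh22 (−20) in the authors' deposited table. Imprinted genes had 3 of 29 (10.3%) against 7 under placebo, and the SAMe-listed site of the list was in Kcnq1 (−23.0 in the authors' deposited table). Peg12, with its gain of 20.5 in that deposited table, is imprinted but was not in the list. Over the 20 lists, 12 had fewer genes with a site under SAMe than under placebo and 3 had more, the order also found over all coding genes (10.8% against 12.5%).

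**Figure D5:**
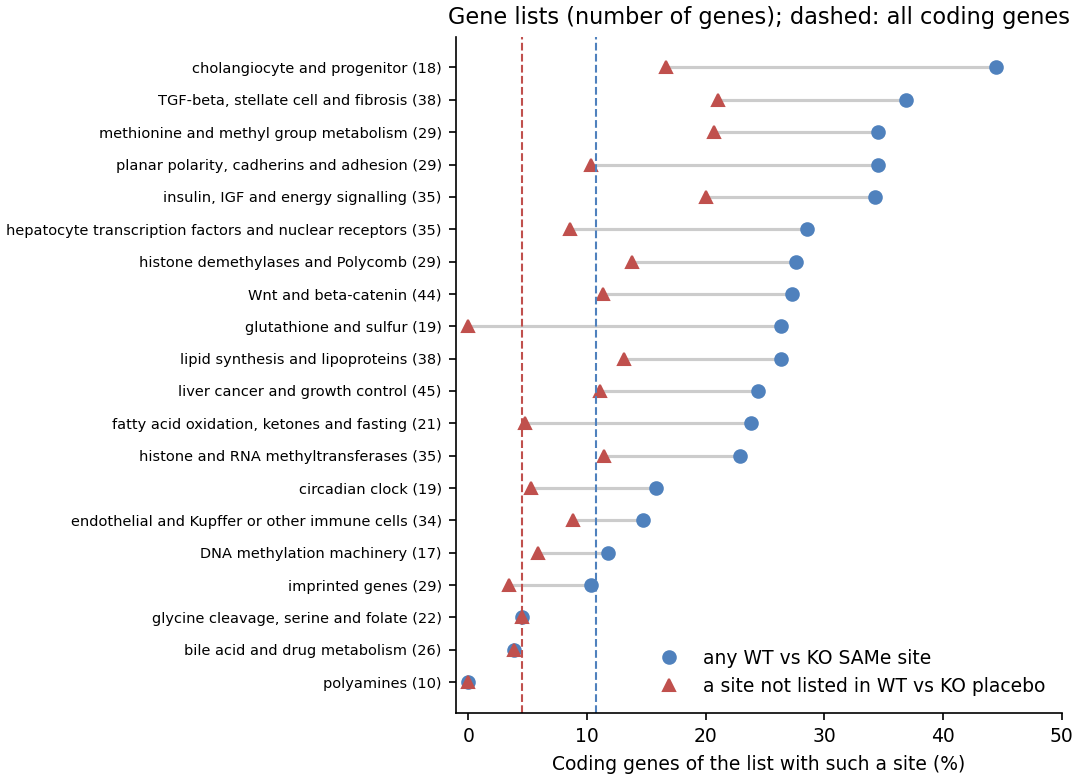
Share of the genes of each list (percent) with a site in the comparison of SAMe-treated KO with WT and with a SAMe-listed site, beside the shares over all 21887 coding genes (10.8% and 4.51%). Both shares exceed those over all genes for 16 of the 20 lists each.

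Between chromosomes the SAMe-listed share ran from 22.2% on chromosome 14 (45 of 203 sites), which carries Mat1a, to 52.5% on chromosome X (21 of 40), against 31.1% overall. Chromosome X had few sites, in 18 of its 966 coding genes (1.86%). Chromosome 8 held 17 of the 53 higher sites, 15 of them SAMe-listed, and the Gcsh run accounts for 13.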

How the data were processed

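Liver DNA of 19 mice was measured by RRBS with MspI and TaqαI, per the labels' protocols. Per the submitters' processing notes, the tools were CASAVA 1.8.2, Trim Galore, Bismark and methylKit and the build was mm10, with settings not stated. The authors deposited 3 tables of their own comparisons, with 1 cytosine per line: a p-value, a q-value and a methylation difference in percentage points. The deposited difference is a group contrast, so depth and animal values are unknown, and no result could be recomputed with an animal left out. How the deposited p-values treat spread between animals is not stated. The number of columns of samples left out was 0.

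From these values, sites were matched between tables by chromosome, position and strand, joined within 1 kb, and assigned to coding genes (21887 in RefSeq, GRCm38.p6, whose primary coordinates are those of mm10) when inside or within 2 kb. A site in overlapping genes counts for each. The gene table gives no exons and no genome was used, so exon, intron and sequence around most sites are not reported here. At sites listed in 2 tables the missing difference was computed by addition, which held within 1e-08 percentage points at the 26 sites in all 3. Python 3.11.15, pandas 2.3.3 and scipy 1.17.1 were used. Matching, assignment to genes, nearest distances and strand pairing were tested on simulated data, and the joining of sites within 1 kb was not.

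The sites described and the 20 gene lists (579 entries, 572 matched) were chosen with earlier results of these data known. Named genes were, among SAMe-listed sites near a coding gene other than predicted ones, those of the 12 largest losses and 12 largest gains, the 10 with most sites, those also listed between the KO groups and up to 4 per list, plus 6 genes with the largest change at shared sites. Other genes, in runs, promoters and lists, were chosen after their values were seen. Alternatives used stricter limits, other matching, distances and gene windows. Some results are not reported here.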

Additional observations from a re-analysis of the deposited data

Results flagged for a closer look

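At some named sites the SAMe-treated and placebo-treated KO groups had different differences from WT by the comparison the authors made between those groups, which used no WT animals. The values below are SAMe minus placebo in percentage points. Negative values in the authors' deposited table were listed for Cars2 (−38.5), Nrxn2 (−26.6), Cntn2 (−25.8), Spry4 (−24.9), Tm2d3 (−23.7) and Adamts17 (−22.8). Llgl2 followed with −22.8 and −20.2 at its 2 sites, then Slc36a2 (−22.4), Lrp5 (−21.9), the cytosine shared by Grb7 and Mien1 (−21.3), Creld1 (−20.2), Llgl1 (−20.2) and Ndufb9 (−20.1) in the authors' deposited table. Positive values there were listed for Clybl (22.6), Stk19 (23.3), Enpp5 (26.4) and Gpr180 (33.8). Further sites of named genes were a shared Prdm16 site (20.4, chromosome 4, 154634832) and the shared Llgl1 site (−20.2) in the authors' deposited table. The Prdm16 site stood at −25.3 from WT under SAMe and −45.7 under placebo in the authors' deposited tables. The spread between animals behind these differences is not known.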

How the results depend on the processing

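Of 15 alternatives, 9 were labelled as the same and 6 as moved, by a rule that allowed a count a ratio of 1.5. Counts labelled as the same thus included a fall from 1676 to 1243 and a rise from 502 to 652. A change of the lower share from 97.6% to 96.5% was labelled as moved. With a difference of at least 25 percentage points, the whole comparison fell from 5383 to 3247 sites. The SAMe-listed sites fell from 1676 to 538 and their lower share from 97.6% to 96.5%. The genes with a SAMe site and no placebo site fell from 502 to 164. For the 538 sites the limit of 25 was put on the SAMe differences only, and the placebo table was kept as deposited. The same limit on both tables would make some shared sites SAMe-listed, and this was not tested. The share of SAMe-listed sites near a placebo-table site was 19.4% at 100 bp and 35.0% at 10 kb, against 25.8% at 1 kb, by construction of the distance. The number of SAMe-listed sites was 1673 with a q-value of at most 0.01, 1667 when either strand counted as a match, 1351 with no placebo site within 100 bp and 1243 within 1 kb. With each of 1431 regions counted once, 98.2% were lower. Genes with a SAMe site and no placebo site numbered 444 inside the gene only and 652 within 10 kb. The number of SAMe-listed sites thus moved more with the limit on the SAMe difference than with matching on either strand. Matching was not varied for the genes. No paired analysis was possible because the tables hold no value per animal and the labels pair no animals. For the same reason no animal could be left out, and depth sets limits that cannot be read from these tables.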

Other observations

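Of 1005 miRNA hairpins in the RefSeq table, 37 (3.68%) had a site of the comparison within 2 kb and 17 (1.69%) a SAMe-listed one. The 17 rest on 12 cytosines, since 8 hairpins of the miR-290 to miR-295 cluster share 1 and Mir322 and Mir503 share another. These genes were singled out after their values were seen. The one site inside a hairpin, SAMe-listed, lay in Mir291b of that cluster, which is known for its expression in embryonic stem cells. Its hairpin is shown 5′ to 3′ because the affected CG, in capitals, is base 12 of 79.
Mir291b, chr7:3219482-3219560 (plus strand): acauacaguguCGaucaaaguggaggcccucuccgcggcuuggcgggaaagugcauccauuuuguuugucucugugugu

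The difference there was −21.8 percentage points in the authors' deposited table, and the hairpin holds 4 CG pairs. The SAMe-listed Srebf2 site at −25.6 in that deposited table lay 72 bp before the hairpin of Mir33, an miRNA of the sterol pathway hosted by Srebf2 (chromosome 15, 82198050). A SAMe-listed site 1046 bp before Mir34a, an miRNA induced by p53, stood at −21.3, and one 1045 bp after Mirlet7i at −23.9 in the authors' deposited table. The site 261 bp before Mir5046 stood at −32.3 in the authors' deposited table, and the sites beside Mir26b were gains.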
